A study of Mus musculus with 8 samples.

Results

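Matrix metalloproteinases (MMPs) were followed in whole mouse ankle joints through the 15 probe sets that the array annotation assigns to Mmp2, Mmp3, Mmp8, Mmp9, Mmp10, Mmp11, Mmp12, Mmp13, Mmp14 or Mmp19 and to no other gene, out of 45101 probe sets on each array. The 8 arrays came from mice at 5 months of age. 2 arrays were from wild-type mice with normal TNFa and normal sphingosine kinase 1 activity, 3 from mice carrying a human TNFa transgene (hTNF) with normal sphingosine kinase 1, and 3 from mice carrying the transgene and labelled as functionally null for sphingosine kinase 1 (Sphk1). The promoter that drives the transgene, the Sphk1 allele and the strain are not given in the sources used here, and no group had the Sphk1-null label without the transgene. Human TNFa transgenes are widely used as models of inflammatory arthritis, and Sphk1 makes the lipid mediator sphingosine 1-phosphate. Nothing in the labels says that arrays of 1 group came from separate litters or extractions, so each p-value speaks only of variation among the arrays at hand, some of it possibly technical.

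MMPs are zinc-dependent endopeptidases that cut collagens, proteoglycans and other matrix proteins. Most are secreted as inactive proenzymes, are activated by removal of a propeptide, and are held in check by the tissue inhibitors of metalloproteinases (TIMPs). In inflamed joints, synovial fibroblasts, macrophages, chondrocytes, osteoclasts and neutrophils are known sources of different members of the family. In whole-joint RNA, more cells of a type and more RNA per cell cannot be told apart.

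The array medians lay between 6.84 and 6.89 log2, and arrays of 1 group correlated at 0.962 to 0.985 across the 24115 probe sets tested. Of the marker lists, 11 of 11 skeletal muscle, 10 of 11 chondrocyte, 7 of 10 bone, 10 of 10 synovial fibroblast, 12 of 12 macrophage and 10 of 11 osteoclast genes were tested. Keratinocyte markers spread most: the log2 of the summed values of 8 of them was 11.78 and 10.24 in wild type, 15.22, 9.51 and 12.40 in hTNF, and 14.02, 9.82 and 12.93 on the arrays labelled null. At its tested probe set Sphk1 went against its label. It was highest on the arrays labelled null, at 9.94 to 10.22 log2, against 8.28 to 8.65 in hTNF and 7.16 to 7.25 in wild-type joints. Its other probe set was too dim to pass the filter. There the arrays labelled null (6.33 to 6.68) overlapped hTNF (6.50 to 6.74). Where these probe sets lie relative to the altered part of the locus is not stated. Their levels therefore do not check a label of lost function, and every direction below that uses this label carries the limit. On 3 arrays (replicate 2 of wild type, replicate 1 of hTNF and replicate 1 of those labelled null), both Xist and the Y-linked Eif2s3y were at least 2 log2 above their lowest array, a threshold set after seeing the data. Xist was at 11.19 or more there and Eif2s3y at 6.60 or more, the latter partly below the filter on dim values. The part of this in the results was not tested, beyond a fit without those arrays, whose values are given below. The wild-type arrays also differed in neutrophil markers: the log2 of the summed values of 11 neutrophil markers was 11.95 on wild-type replicate 1 and 15.13 on replicate 2.

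Of the 10 MMP genes, 7 were higher in hTNF than in wild-type joints, against 16.5% of all genes, and none was lower. These were Mmp2, Mmp3, Mmp9, Mmp12, Mmp13, Mmp14 and Mmp19, each represented by its brightest probe set. By probe set, limma called 12 of the 15 higher at an adjusted p under 0.05 (Benjamini-Hochberg over all probe sets tested), against 16.6% of all probe sets called higher and 33.0% called in either direction. The hTNF and wild-type values did not overlap, with hTNF higher, for 13 of the 15, against 30.6% of all tested. The median difference of the 10 genes was 1.75 log2, against -0.02 for all 12362 genes tested. All 15 probe sets passed the filter on dim values, which asked for at least 2 of the 8 arrays above 6.87 log2, but Mmp10 and both Mmp19 probe sets passed through transgenic arrays alone, so their passing was not independent of the direction. On the arrays labelled null, 13 of the 15 were called higher than wild type, against 18.7% of all probe sets called higher and 39.0% called in either direction, and the median of the 10 genes was 1.98 log2. By gene this was 8 of 10 higher, against 19.1% of all genes, with Mmp10 called besides the 7. Both comparisons use the same 2 wild-type arrays. Leaving out the 3 arrays that had Xist together with Eif2s3y left only wild-type replicate 1 in its group, so call counts against wild type are not given here for that fit.

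**Figure D1:**
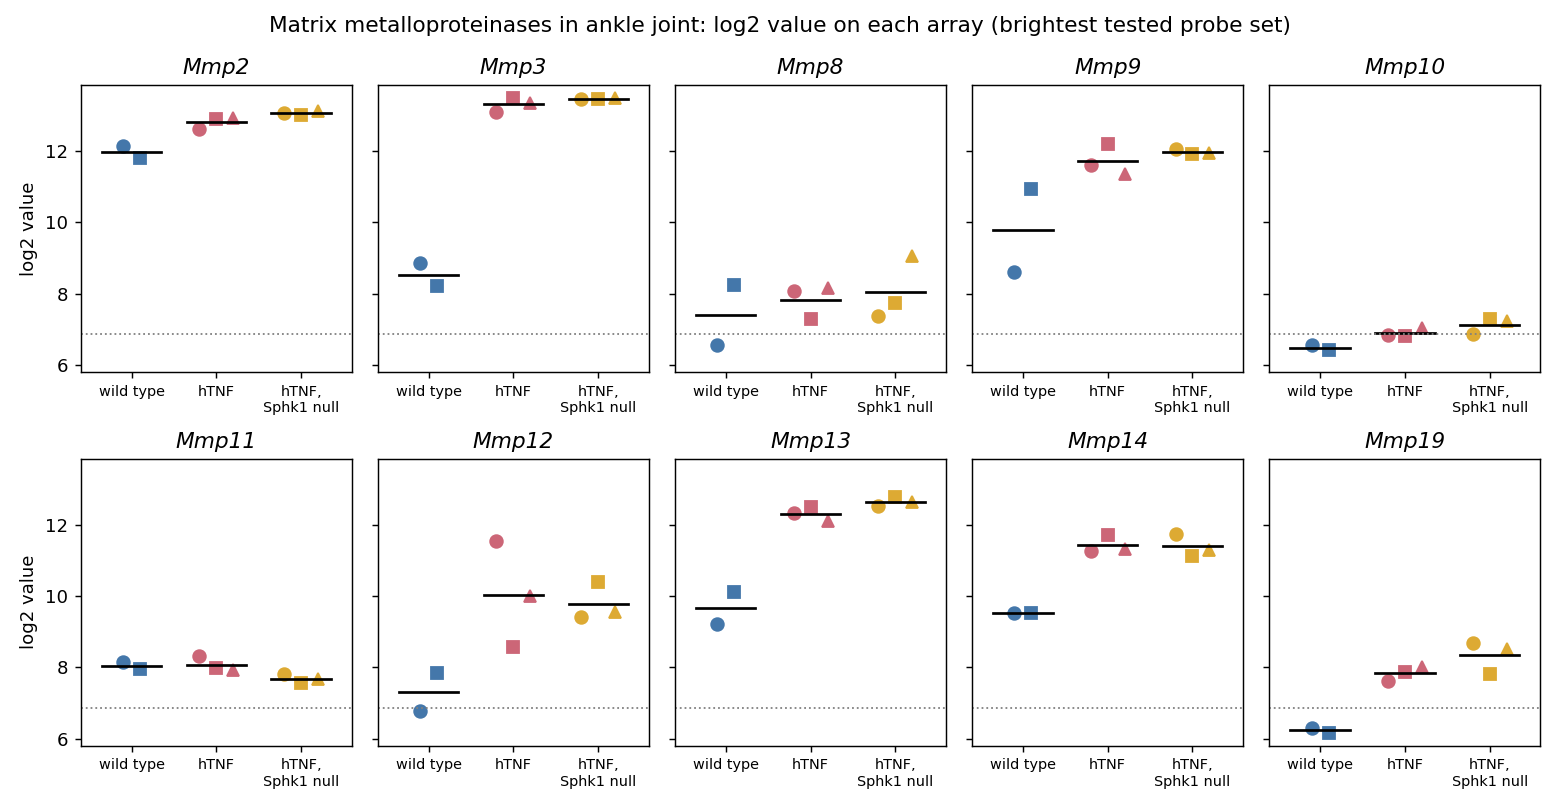
Log2 value of the brightest tested probe set of each MMP gene (vertical axis) on each array, in wild type (blue), hTNF (red) and hTNF labelled Sphk1 null (yellow). Circles, squares and triangles are replicates 1, 2 and 3, which have no order, bars are group means, and the dotted line is the filter value of 6.87. Mmp3 lies between 8.21 and 8.85 in wild type and between 13.09 and 13.48 on all 6 transgenic arrays, while Mmp8 and Mmp9 differ by 1.69 and 2.31 between the wild-type arrays and Mmp12 spans 2.99 in hTNF.

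Stromelysins 1 and 2 cut proteoglycans, fibronectin and non-fibrillar collagens, and Mmp3 (stromelysin 1) can also activate other pro-MMPs. Mmp3 read 8.85 and 8.21 log2 in wild-type joints, 13.09, 13.48 and 13.33 in hTNF, and 13.46, 13.45 and 13.47 on the arrays labelled null. Every transgenic array stood far above both wild-type arrays, and the 3 arrays labelled null lay within 0.02 of each other. Mmp3 rose by 4.77 ± 0.17 log2 (SE, 3 arrays against 2; 27.3-fold; limma adjusted p = 1.75e-06) in hTNF, the largest difference among the members. Mmp10 (stromelysin 2), its close relative, was dim: 6.55 and 6.41 in wild type, 6.84, 6.82 and 7.05 in hTNF, and 6.87, 7.29 and 7.22 on the arrays labelled null. No transgenic value reached down to wild type, but all wild-type values and 2 of 3 hTNF values were below the filter. The difference was 0.42 ± 0.17 log2 in hTNF (limma adjusted p = 0.0796), and Mmp10 rose by 0.65 ± 0.17 (limma adjusted p = 0.0123) on the arrays labelled null. The latter call ended without wild-type replicate 2 (adjusted p = 0.0814). Mmp11 (stromelysin 3), which is activated inside the cell by furin-type convertases, read 8.14 and 7.96 in wild type, 8.32, 7.98 and 7.94 in hTNF, and 7.82, 7.56 and 7.68 on the arrays labelled null. Its hTNF and wild-type values overlapped, with a difference of 0.03 ± 0.15 (95% interval -0.31 to 0.37; limma adjusted p = 0.910). On the arrays labelled null all 3 values were below both wild-type values, with a difference of -0.36 ± 0.15 (limma adjusted p = 0.0863). Without the 3 arrays that had Xist together with Eif2s3y, this difference was -0.52, against wild-type replicate 1 alone.

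The collagenases make the first cut in fibrillar collagen. Mmp13 (collagenase 3), the main interstitial collagenase of mouse cartilage and bone, read 9.22 and 10.11 log2 in wild-type joints, 12.33, 12.50 and 12.09 in hTNF, and 12.53, 12.76 and 12.62 on the arrays labelled null. Mmp13 rose by 2.64 ± 0.23 log2 (6.24-fold; limma adjusted p = 6.27e-05) in hTNF and by 2.97 ± 0.23 (7.84-fold; limma adjusted p = 2.35e-05) on the arrays labelled null. No transgenic value came near the higher wild-type array. Mmp8 (collagenase 2), which neutrophil precursors make and store in granules, read 6.56 and 8.25 in wild type, 8.07, 7.28 and 8.15 in hTNF, and 7.36, 7.75 and 9.06 on the arrays labelled null. The 3 groups overlapped, and wild-type replicate 2 was above all 3 hTNF arrays. The difference between hTNF and wild type was 0.43 ± 0.57 log2 (95% interval -0.86 to 1.71; limma adjusted p = 0.626), and it turned to -0.42 without wild-type replicate 1 (adjusted p = 0.708) and to 1.27 without replicate 2 (adjusted p = 0.163).

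Mmp8 and the neutrophil markers ordered the arrays alike. The 8 arrays stood in the same order by Mmp8 as by the log2 of the summed values of the 11 neutrophil markers measured, which include the calprotectin genes S100a8 and S100a9 and the granule genes Ltf, Ngp and Camp. Of the 28 pairs of arrays, 28 were ordered the same way, and so were 7 of the 7 pairs within a group. The marker sum was lowest on wild-type replicate 1 (11.95) and highest on replicate 3 of the arrays labelled null (15.45), where Mmp8 was also lowest and highest. It ranged from 11.95 to 15.13 in wild type, from 13.78 to 14.67 in hTNF and from 14.02 to 15.45 on the arrays labelled null. The order is a description from 8 arrays. Among the 90 combinations of 10 genes with 9 marker lists, the next highest counts were 26 of 28 pairs, for Mmp3 with the osteoclast list and for Mmp13 with the synovial fibroblast list. Within groups these agreed in 5 of 7 pairs each. Of the 11 neutrophil markers, 1 rose in hTNF and none fell, against 16.5% of all genes called higher and 19.6% called lower, and the part of neutrophil content in the Mmp8 values was not tested. The listed neutrophil genes Ly6g, Cxcr2 and Retnlg were not in the sum.

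**Figure D2:**
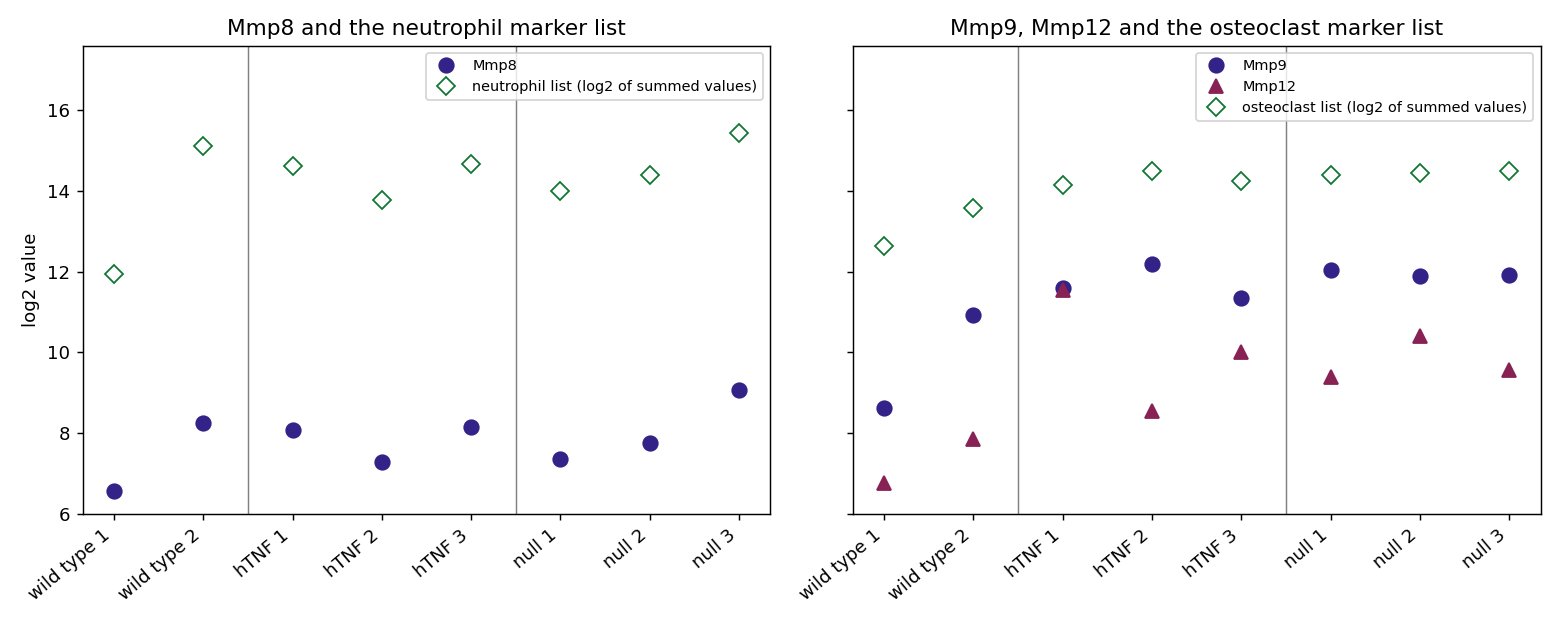
Log2 values by array (vertical axis) of Mmp8 beside the neutrophil marker list (left) and of Mmp9 and Mmp12 beside the osteoclast marker list (right). Open diamonds are the log2 of the summed linear values of the list, and vertical lines separate wild type, hTNF and the arrays labelled null. Mmp8 and the neutrophil list are lowest on wild-type replicate 1 (6.56 and 11.95) and highest on null replicate 3 (9.06 and 15.45).

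The gelatinases cut denatured collagen and basement membrane collagen. Mmp2 (gelatinase A), a fibroblast product, read 12.14 and 11.81 log2 in wild-type joints, 12.61, 12.90 and 12.92 in hTNF, and 13.06, 13.01 and 13.12 on the arrays labelled null. The 3 groups did not overlap at this probe set. Mmp2 rose by 0.83 ± 0.12 log2 (1.78-fold; limma adjusted p = 0.000897) in hTNF and by 1.09 ± 0.12 (2.13-fold; limma adjusted p = 0.000150) on the arrays labelled null, and its other probe set gave 0.95 ± 0.14 and 1.16 ± 0.14. Mmp9 (gelatinase B), made by osteoclasts, macrophages and neutrophils, read 8.62 and 10.93 in wild type, 11.61, 12.20 and 11.35 in hTNF, and 12.04, 11.90 and 11.93 on the arrays labelled null. The 2 wild-type arrays differed by 2.31 log2, a wider range than at 99.86% of tested probe sets, while the arrays labelled null differed by 0.14. Mmp9 rose by 1.95 ± 0.53 log2 (3.85-fold; limma adjusted p = 0.0198) in hTNF and by 2.18 ± 0.53 (4.54-fold; limma adjusted p = 0.00972) on the arrays labelled null. The size depended on the wild-type array used: the hTNF difference was 0.79 without wild-type replicate 1 (adjusted p = 0.0776) and 3.10 without replicate 2 (adjusted p = 0.000289), and on the arrays labelled null it was 1.03 and 3.34. With the 3 arrays that had Xist together with Eif2s3y left out, the hTNF difference was 3.15. That fit, like the one without wild-type replicate 2, compared with wild-type replicate 1 alone, so the 2 values are not separate checks. The hTNF call also ended without hTNF replicate 2 (adjusted p = 0.0563).

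Markers of osteoclasts, the bone-resorbing cells, were summed beside Mmp9. The log2 of the summed values of 10 osteoclast markers was 12.64 and 13.59 on wild-type replicates 1 and 2, 14.16 to 14.51 in hTNF and 14.39 to 14.49 on the arrays labelled null. Mmp9 and this sum ordered 25 of the 28 pairs of arrays alike, but 4 of the 7 pairs within a group. This was not particular to the osteoclast list. The synovial fibroblast, macrophage and proliferation lists gave 22, 21 and 21 of 28, each also with 4 of 7 within a group. The skeletal muscle list gave 10 of 28, with 6 of 7 within a group. Of these 10 genes, 6 rose and none fell in hTNF, against 16.5% and 19.6% of all genes. Among the 6, Dcstamp, Ocstamp and Tnfrsf11a were below the filter in wild type and passed it through transgenic arrays alone, so they count as no support. Nfatc1 (-0.06 ± 0.12; limma adjusted p = 0.772) and Car2 (-0.80 ± 0.49; limma adjusted p = 0.253), named after their values were seen, had negative differences, and Calcr, the calcitonin receptor, did not pass the filter. Patterns were compared by the root mean square difference over the 8 arrays after each gene was centred on its wild-type mean. The non-member gene nearest to Mmp9 was the osteoclast acid phosphatase Acp5, at 0.32 log2. It was picked as the nearest of all tested genes and is itself in the osteoclast list, so it counts as no support. Acp5 read 9.59 and 11.41 in wild type and 11.86 to 12.59 on the 6 transgenic arrays. The part of cell content in the Mmp9 difference was not tested.

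Mmp12 (macrophage elastase) was the most variable member among the hTNF arrays. It read 6.77 and 7.85 log2 in wild-type joints, 11.55, 8.56 and 10 in hTNF, and 9.40, 10.40 and 9.56 on the arrays labelled null. All 6 transgenic arrays were above both wild-type arrays (hTNF replicate 2 came closest), and the hTNF arrays spanned 2.99 log2. Mmp12 rose by 2.73 ± 0.72 log2 (6.62-fold; limma adjusted p = 0.0170) in hTNF and by 2.48 ± 0.72 (5.57-fold; limma adjusted p = 0.0223) on the arrays labelled null. Without wild-type replicate 1 both calls ended, at 2.19 (adjusted p = 0.139) and 1.94 (adjusted p = 0.163), and leaving out null-labelled replicate 2 the second was 2.17 (adjusted p = 0.0655). The summed level of 12 macrophage markers differed far less within hTNF, from 16.01 to 16.25 log2, than Mmp12 did. It ranged from 14.66 to 14.72 in wild type and from 16.24 to 16.38 on the arrays labelled null. The sum gives most weight to bright markers such as Lyz2, and some single markers varied more. Mrc1 read 11.55, 10.74 and 11.07 in hTNF, in the order of Mmp12, and Marco 7.07, 8.85 and 8.93, in another order. Both were named after their values were seen. Of the macrophage markers, 11 rose and none fell in hTNF, against 16.5% and 19.6% of all genes; Marco among them passed the filter through transgenic arrays alone. The keratinocyte sum given above ordered the 3 hTNF arrays as Mmp12 did and the 3 arrays labelled null in the reverse order. The part of either cell type in the Mmp12 values was not tested.

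Mmp14 (MT1-MMP), a membrane-anchored collagenase that also activates pro-Mmp2, rose at all 3 of its probe sets. The brightest read 9.52 and 9.53 log2 in wild-type joints, 11.26, 11.70 and 11.31 in hTNF, and 11.75, 11.13 and 11.30 on the arrays labelled null. The wild-type arrays differed by 0.01 log2, and every transgenic array was well above them. Mmp14 rose by 1.90 ± 0.19 log2 (3.73-fold; limma adjusted p = 0.000135) in hTNF and by 1.87 ± 0.19 (3.65-fold; limma adjusted p = 8.91e-05) on the arrays labelled null. The other 2 probe sets gave 2.22 ± 0.27 and 1.85 ± 0.12 in hTNF. Mmp19, a secreted MMP of broad specificity, read 6.30 and 6.17 in wild type, 7.61, 7.88 and 8.01 in hTNF, and 8.69, 7.81 and 8.51 on the arrays labelled null at its brighter probe set. Mmp19 rose by 1.60 ± 0.24 log2 (3.03-fold; limma adjusted p = 0.00107) in hTNF and by 2.10 ± 0.24 (4.29-fold; limma adjusted p = 0.000171) on the arrays labelled null. Its other probe set, which read 4.82 and 4.53 in wild type and 7.87 to 9.02 on the transgenic arrays, gave 3.32 ± 0.23 and 3.97 ± 0.23. Both gave the same direction but different sizes. Wild type was below the filter at both, and an offset of 32 on the linear scale took the brighter one to 1.28.

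**Figure D3:**
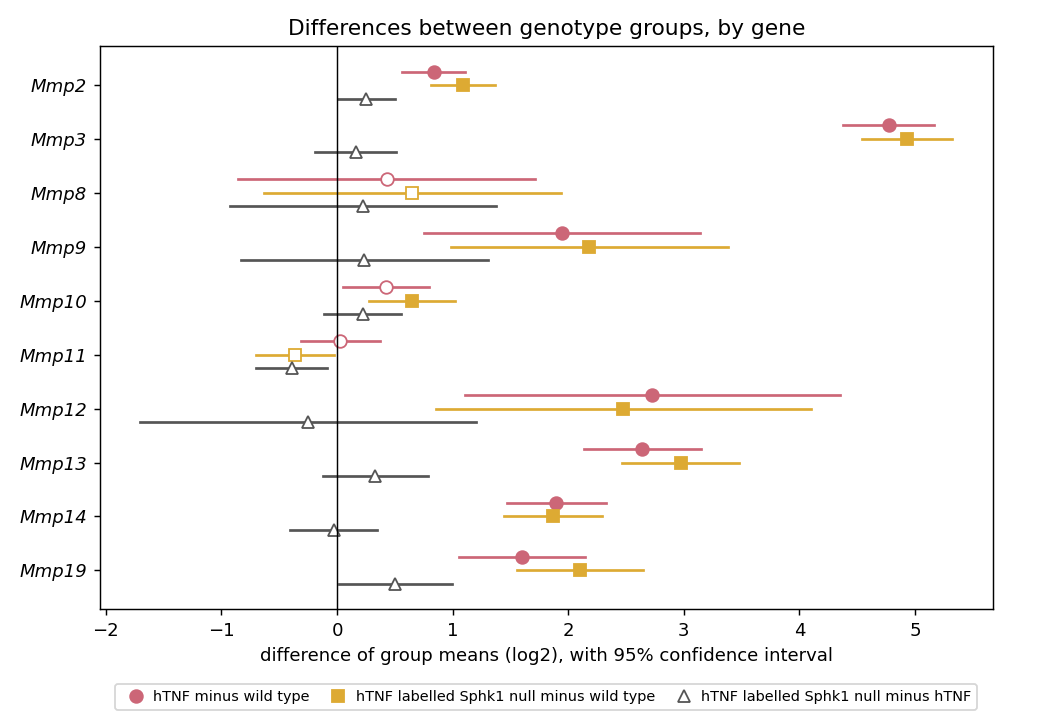
Difference of group means in log2 (horizontal axis) with its 95% confidence interval for each MMP gene, for hTNF minus wild type (circles), hTNF labelled Sphk1 null minus wild type (squares) and hTNF labelled Sphk1 null minus hTNF (triangles). Filled symbols passed limma at an adjusted p under 0.05; no triangle did, and Mmp3 at 4.77 and 4.93 lies farthest from 0.

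The design also asks whether the Sphk1-null label changes MMP expression in the transgenic joint. Limma called 0 of the 15 probe sets between the arrays labelled null and hTNF, against 0.00829% of all probe sets (2 of 24115). At an unadjusted p under 0.05 there were 5 of the 15 (4 higher, 1 lower), against 7.61% of all tested (2.65% higher and 4.96% lower). Values of the groups were fully separate for 5 of the 15 (4 higher, 1 lower), against 11.2% of all tested (5.34% higher and 5.85% lower). The 5 at an unadjusted p under 0.05 belonged to Mmp14 (0.36 ± 0.10 log2 at 1 of 3 probe sets; limma adjusted p = 0.566), Mmp19 (0.50 ± 0.22 and 0.65 ± 0.21; limma adjusted p = 0.654 and 0.605), Mmp2 (0.25 ± 0.11 at 1 of 2; limma adjusted p = 0.654) and Mmp11. Mmp11 was lower by 0.39 log2 with an SE of 0.13 (limma adjusted p = 0.612), and none of its values overlapped those of hTNF. At the brightest Mmp14 probe set the difference was -0.03 ± 0.17, so the probe sets of that gene disagreed.

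The intervals of these differences show how much the arrays leave unresolved. For Mmp3 the 95% interval of this difference was -0.19 to 0.51 log2, for Mmp13 -0.13 to 0.79 and for Mmp14 -0.41 to 0.35 at the brightest probe set. For Mmp8, Mmp9 and Mmp12 it was far wider: -0.92 to 1.37, -0.83 to 1.31 and -1.70 to 1.20. The median difference of the 10 genes was 0.22 log2, and that of all genes tested was -0.02. Over the alternatives tried, the lowest adjusted p of any member in this comparison was 0.149, for Mmp11.

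Mmp3, Mmp8, Mmp10, Mmp12 and Mmp13 belong to a cluster of 10 Mmp genes on chromosome 9, which lie side by side in the RefSeq gene table of mouse build GRCm38.p6 with 0 other protein-coding genes between them. In the order of that table they are Mmp13, Mmp12, Mmp1b, Mmp3, Mmp1a, Mmp10, Mmp8, Mmp27, Mmp20 and Mmp7, and 6 of them were tested. Their responses were unequal: Mmp13, Mmp12 and Mmp3 rose in hTNF, whereas Mmp10, Mmp8 and Mmp7 (matrilysin; -0.18 ± 0.20, limma adjusted p = 0.546) were not called. Mmp10 alone among these 3 was called on the arrays labelled null. Mmp1a and Mmp1b, the interstitial collagenase genes flanking Mmp3, stayed at 3.57 to 4.22 log2 on all 8 arrays, and Mmp20, an enzyme of tooth enamel, at 4.91 to 5.51, all below the filter. Mmp27 was not analysed here.

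**Figure D4:**
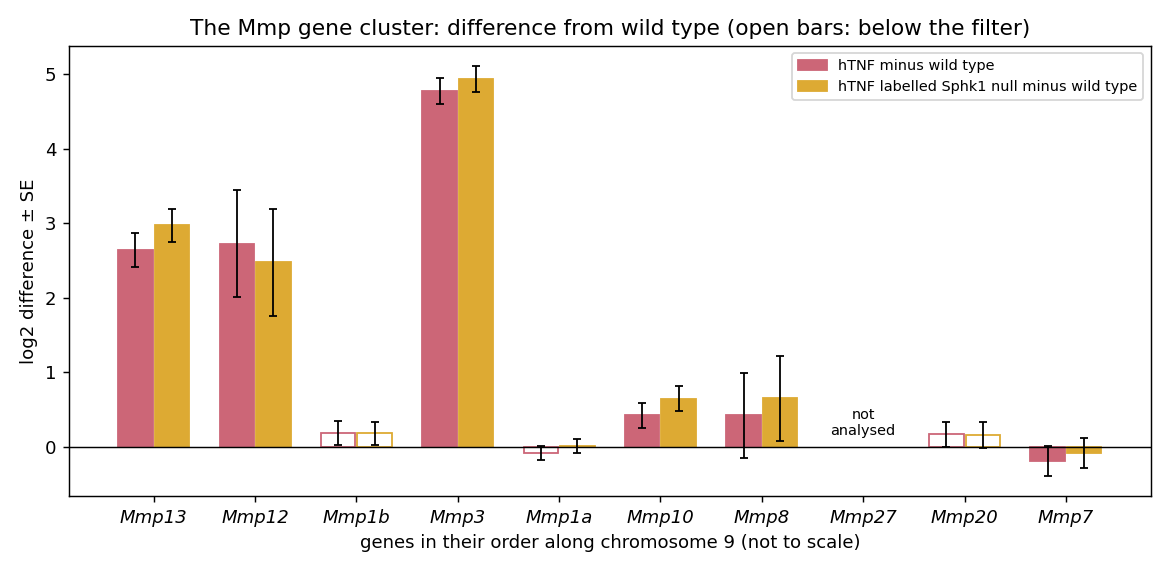
Difference from wild type in log2 with its SE (vertical axis) for the Mmp genes of chromosome 9 in map order (horizontal axis, not to scale), for hTNF (red) and hTNF labelled Sphk1 null (yellow). Open bars are genes below the filter, with values from a fit without it; Mmp13, Mmp12 and Mmp3 stand at 2.48 to 4.93, and the genes between and after them at 0.65 or less.

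Several MMP promoters are known to carry a binding element of AP-1, the dimer of Fos and Jun proteins that cytokines activate, close to the start of transcription. RefSeq promoter windows of GRCm38.p6, from 250 bases before to 50 bases after a start, were given for 7 of the 10 members and searched for the AP-1 consensus TGANTCA, which reads the same on both strands. It was found in Mmp3, Mmp10, Mmp12 and Mmp13 and not in Mmp8, Mmp11 or Mmp14. Of all 27025 genes with a window, 8.97% hold it in any window, and of all 32851 windows 7.81% do. Across the family, 8 of the 10 genes of the chromosome 9 cluster held it and 0 of the 8 other Mmp genes with a window did. No window was given for Mmp2, Mmp9 and Mmp19, which lie outside the cluster and rose in hTNF. They are not in this count, so it does not show that the motif is confined to the cluster. The windows of the members with a match, all on the plus strand, and that of Mmp14, which rose without one, are printed 5′ to 3′ with the match in capitals. They are chr9:7445572-7445871 for Mmp3, chr9:7272264-7272563 for Mmp13, chr9:7347124-7347423 for the second window of Mmp12, chr9:7502092-7502391 for Mmp10 and chr14:54431348-54431647 for Mmp14.
Mmp3: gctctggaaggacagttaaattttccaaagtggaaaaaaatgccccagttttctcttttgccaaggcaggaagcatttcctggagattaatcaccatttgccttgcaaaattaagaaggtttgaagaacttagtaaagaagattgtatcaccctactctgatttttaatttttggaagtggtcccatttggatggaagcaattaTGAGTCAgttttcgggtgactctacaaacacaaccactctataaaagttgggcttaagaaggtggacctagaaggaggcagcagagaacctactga
Mmp13: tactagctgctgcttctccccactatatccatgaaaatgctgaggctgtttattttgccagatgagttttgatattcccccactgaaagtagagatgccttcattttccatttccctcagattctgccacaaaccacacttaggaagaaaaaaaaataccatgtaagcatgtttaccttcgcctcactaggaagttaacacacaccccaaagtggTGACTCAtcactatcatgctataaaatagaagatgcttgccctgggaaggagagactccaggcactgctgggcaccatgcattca
Mmp12: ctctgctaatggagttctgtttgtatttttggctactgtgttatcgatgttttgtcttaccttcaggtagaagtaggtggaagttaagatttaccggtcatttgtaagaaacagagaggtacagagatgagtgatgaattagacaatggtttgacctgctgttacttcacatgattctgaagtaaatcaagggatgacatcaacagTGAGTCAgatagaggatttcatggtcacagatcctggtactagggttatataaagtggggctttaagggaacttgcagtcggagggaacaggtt
Mmp10: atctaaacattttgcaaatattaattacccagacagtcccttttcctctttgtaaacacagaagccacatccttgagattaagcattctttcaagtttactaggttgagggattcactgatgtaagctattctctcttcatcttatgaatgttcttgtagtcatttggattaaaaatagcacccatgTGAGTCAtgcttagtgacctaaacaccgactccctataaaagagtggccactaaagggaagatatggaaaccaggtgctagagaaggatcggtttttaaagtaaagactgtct
Mmp14: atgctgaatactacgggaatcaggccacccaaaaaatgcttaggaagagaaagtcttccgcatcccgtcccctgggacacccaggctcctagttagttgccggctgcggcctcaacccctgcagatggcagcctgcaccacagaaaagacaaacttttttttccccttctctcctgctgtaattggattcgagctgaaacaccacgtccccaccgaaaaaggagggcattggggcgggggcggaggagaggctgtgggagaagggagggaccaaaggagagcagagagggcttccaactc

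The match began 46 bases before the annotated start in Mmp3, 35 in Mmp13, 44 in Mmp12 and 63 in Mmp10. Mmp13 had TGACTCA and the other 3 had TGAGTCA. The first Mmp12 window, farther upstream, held none. A match did not go with a rise in every case: Mmp3, with its 27.3-fold difference, Mmp10 and Mmp7, both uncalled in hTNF, and Mmp1a and Mmp1b, below the filter on every array, carry the same 7 letters. The letters are a description, and whether any factor bound there was not measured.

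Genes for AP-1 and Runx factors, which include known regulators of Mmp13, were measured on the same arrays. Runx2, also on the list, had no probe set assigned to it alone and was not measured here. Of 10 tested, 6 rose and none fell in hTNF, against 16.5% of all genes called higher and 19.6% called lower, with a median of 0.69 log2 against -0.02 for all genes. Junb (1.30 ± 0.19), Fosl2 (1.07 ± 0.14), Runx1 (1.02 ± 0.12), Runx3 (0.85 ± 0.22), Fos (0.78 ± 0.26) and Fosl1 (0.59 ± 0.14) rose, with limma adjusted p from 0.000295 to 0.0482. The rest were not called: Atf3 (0.60 ± 0.22), Jund (0.315 ± 0.13), Jun (0.27 ± 0.21) and, with a negative difference, Fosb (-0.68 ± 0.35). Fosl1 was below the filter in wild type and passed it through transgenic arrays alone, so its passing was not independent of its direction. On the arrays labelled null 8 of the 10 were called higher than wild type and none lower, against 19.1% and 23.8% of all genes. In none of the gene lists described here was a gene called between the transgenic groups.

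The inhibitors of MMPs moved in opposite directions. Of 8 tested genes of inhibitors and related proteins, 4 rose and 3 fell in hTNF, against 16.5% and 19.6% of all genes, and 4 were higher and 3 lower on the arrays labelled null, against 19.1% and 23.8%. Timp1, the cytokine-inducible TIMP, read 9.90 and 10.01 log2 in wild type and 12.37 to 12.83 on the 6 transgenic arrays, and rose by 2.56 ± 0.12 (limma adjusted p = 4.15e-06) in hTNF. Tfpi2 (0.76 ± 0.20) and the procollagen C-proteinase enhancer Pcolce (0.48 ± 0.12) rose less, and Timp2 was also called higher. Tfpi2 was below the filter in wild type and passed it through transgenic arrays alone. Timp3, the matrix-bound TIMP, fell from 12.26 and 12.22 in wild type to 10.94 to 11.18 in hTNF, a difference of -1.18 ± 0.11 (limma adjusted p = 0.000119). Timp4 (-1.998 ± 0.24; limma adjusted p = 0.000333) and Reck (-0.81 ± 0.15; limma adjusted p = 0.00346), a membrane-anchored MMP inhibitor, fell too.

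Of 13 tested genes of MMP activation, 2 were higher and 4 lower in hTNF. The share called higher was close to the 16.5% of all genes, and the share called lower was above the 19.6% of all genes. Both rest on few genes, and no test over the list was made. The urokinase gene Plau and the plasminogen gene Plg were also listed but did not pass the filter. Plaur, the receptor that holds the plasminogen activator urokinase at the cell surface, rose by 2.41 ± 0.13 log2 (limma adjusted p = 5.96e-06), and the proprotein convertase Furin, which activates Mmp14 and Mmp11, by 0.40 ± 0.12 (limma adjusted p = 0.0300). The convertases Pcsk6 (-1.69 ± 0.15) and Pcsk5 (-0.68 ± 0.21), the mast cell chymase Cma1 (-0.89 ± 0.13) and the membrane serine protease Hpn (-0.89 ± 0.23) fell. Cma1 and Hpn were below the filter on every transgenic array and passed it through the wild-type arrays alone. Of the other Mmp genes outside the listed members, 3 passed the filter and Mmp23, a membrane-bound MMP, was called, with a rise of 1.00 ± 0.18 (limma adjusted p = 0.00285).

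Among 23 tested genes for matrix substrates, 7 rose and 3 fell in hTNF, against 16.5% and 19.6% of all genes. Those that rose included the fibrillar collagen chains Col5a1 (1.43 ± 0.11) and Col1a1 (0.82 ± 0.09) and the proteoglycan lumican, Lum (0.83 ± 0.10). Those that fell were Col10a1 (-1.40 ± 0.33), aggrecan, Acan (-1.35 ± 0.14) and Col9a1 (-1.14 ± 0.34), all genes of cartilage. Other cartilage genes of the list, named after their values were seen, did not follow: Col11a1 rose (0.58 ± 0.20; limma adjusted p = 0.0465), and Col2a1 (-0.32 ± 0.25; limma adjusted p = 0.375) and Comp (-0.30 ± 0.12; limma adjusted p = 0.0889) were not called. These are transcript levels of the substrates, and cleavage was not measured. Of 10 chondrocyte markers, several of them also in the substrate list, 7 fell and 1 rose, against 19.6% and 16.5% of all genes. Cnmd, among the 7, was below the filter on every transgenic array and passed it through the wild-type arrays alone. Its passing was therefore not independent of its direction. The summed level of the 10 markers was 14.92 to 15.15 log2 in wild type, 14.03 to 14.26 in hTNF and 14.06 to 14.09 on the arrays labelled null. Skeletal muscle markers fell as well (10 of 11, against the same 19.6%), from a summed 17.47 to 17.48 in wild type to 16.32 to 16.64 in hTNF. The part of tissue content in the differences of the matrix and inhibitor genes was not tested.

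The non-member genes whose pattern over the 8 arrays lay nearest to a member were named for 4 of them. For Mmp3 they were the monocyte chemokine Ccl2, with a root mean square difference of 0.22 log2, and the myeloid lectin Clec4d, with 0.36. For Mmp13 they were the leukocyte integrin chain Itgb2 (0.21) and the matrix protein gene Cthrc1 (0.22), and for Mmp2 the collagen gene Col16a1 (0.07) and the fibulin gene Fbln2 (0.08). After Acp5, Mmp9 had Atp8b4 (0.44). Likeness over 8 arrays of 3 groups is a description, since these genes share the arrays they were measured on and were picked as the nearest of all tested genes.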

How the data were processed

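Expression was measured on 8 single-colour arrays. The authors deposited a single table on a log2 scale. Expression Console (Affymetrix), RMA and MAS5 are named per the submitters' processing notes, and which of them produced the values is not given in the sources. The number of arrays, 2 or 3 per group, limits precision, and so does the spread between them. Gene names follow the platform annotation, with symbols brought up to date by gene identifier in the RefSeq table of GRCm38.p6; 932 probe sets with several genes stayed unnamed. Tested probe sets exceeded the table median (6.87) on at least 2 arrays, and 64 controls were dropped. With limma 3.58.1 in R 4.3.3, 3 group means were estimated from all 8 arrays (intensity trend, 5 residual degrees of freedom), after the code was tested on simulated data. Adjusted p is Benjamini-Hochberg over 24115 probe sets, called under 0.05; "rose" and "fell" mean called. The brightest tested probe set stood for a gene. From each list, up to 6 genes with the largest called change in hTNF are named with values. The 2 genes nearest to Mmp3, Mmp13, Mmp9 and Mmp2 in pattern are named too. Members and lists were chosen with earlier results of these data known. Alternatives changed the filter, normalization, offset, variance model, arrays, probe set and replicate block.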

Additional observations from a re-analysis of the deposited data

How the results depend on the processing

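For single members, 552 alternative values were computed over the 3 comparisons. Of these, 537 kept their side of the threshold, 11 lost a call and 4 gained one. No called value changed sign, and 16 uncalled values did. Many settings cannot change the difference itself, such as the filter, the intensity trend, robust moderation or leaving out an array of the third group. For those the sign was fixed in advance. The lost calls concerned Mmp9, Mmp10 and Mmp12 and the gained ones Mmp10 and Mmp11. With robust moderation, Mmp9 (adjusted p = 0.0783) and Mmp12 (0.0747) were not called in hTNF, nor Mmp12 on the arrays labelled null (0.0870). The gain for Mmp11 (-0.52 on the arrays labelled null) came from leaving out the 3 arrays that had Xist together with Eif2s3y. That setting, added after seeing the data, left only wild-type replicate 1 in its group. Xist was low and Eif2s3y high on that array, and the reverse held on the remaining arrays labelled null.

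Of the 15 member probe sets, 9 to 13 were called in hTNF, 12 or 13 on the arrays labelled null, and 0 between the transgenic groups under the alternatives. The counts against wild type leave out the fit without the 3 arrays that had Xist together with Eif2s3y. Over all probe sets, leaving out 1 array gave 4695 to 9313 calls for hTNF against wild type and 0 to 3 between the transgenic groups; the latter count was 6 with quantile normalization, 1 with the stricter filter (5 of 8 arrays), 1 with array weights and 0 when the 3 arrays that had Xist together with Eif2s3y were left out, and the cause was not tested. With the replicate number as a block, 12, 0 and 13 member probe sets were called, and 6515, 2 and 7770 of all probe sets. Whether the numbers pair the arrays cannot be settled from 2 or 3 arrays per group. Same-numbered hTNF and null-labelled arrays had residual correlations of 0.23, 0.05 and 0.25, and differently numbered ones ranged from -0.49 to 0.37. An offset of 32 before log2 moved Mmp19 in hTNF to 1.28 and Mmp3 to 4.65.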
